A study of Mus musculus with 4 samples.

Results

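The synaptotagmins were followed here as a list of 10 genes, Syt1, Syt2, Syt4, Syt5, Syt6, Syt7, Syt10, Syt13, Syt16 and Syt17, out of the 31053 features in the count matrices of mouse ventromedial prefrontal cortex. The rule names the genes and sets no threshold on a measured value, but earlier results of these data were known when the list was made. All 10 genes were matched by symbol in every library, and UMI counts, the counts of unique molecular identifiers that mark single captured transcripts, were summed over the cells of a type within a library.

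Synaptotagmins are proteins of vesicle and cell membranes that carry a pair of C2 domains. In some members these domains bind calcium and couple its entry to the fusion of synaptic or dense-core vesicles, while in others the calcium-binding residues are missing. Cortical neurons are known to rely on Syt1 for fast transmitter release and on Syt7 for slower release and vesicle supply, and fast-spiking interneurons use Syt2 at their terminals.

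The study combined single-cell RNA sequencing with retrograde viral barcodes to relate the transcriptome of a prefrontal neuron to the regions it projects to. Male C57BL/6 mice of 8 weeks received, on one side of the brain, 5 rAAV2-retro viruses into 5 regions, the agranular insula, dorsomedial striatum, mediodorsal thalamus, basolateral amygdala and lateral hypothalamus, and the prelimbic and infralimbic areas were dissected 6 weeks later. Each virus expressed EGFP and a barcode from a short CAG promoter, and slices of all animals were held in blockers of AMPA and NMDA receptors during preparation. There were 3 unsorted libraries, 1 mouse each, and 1 library of cells sorted for EGFP from 3 pooled mice, and all animals carried the same genotype and the same viruses, so that no library came from an uninjected mouse.

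The unsorted libraries held 8040, 7443 and 7243 cell barcodes with 83065993 to 87841541 UMIs each, and the sorted library held 2075 cell barcodes with 54749198 UMIs. The authors' annotation gave 9368 excitatory neurons in 7 subtypes, with median depths of 21362, 22252 and 23213 UMIs in unsorted libraries 1 to 3 and 31670 UMIs after sorting. Inhibitory cells were absent from that annotation and were taken as cells with 4 or more UMIs of Gad1 and Gad2 together and at most 3 of Slc17a7, which gave 443, 453 and 382 cells with medians of 13277 to 14101 UMIs, and 5 cells in the sorted library. The markers below describe the groups and are no independent check, because the inhibitory cells were chosen by Gad1, Gad2 and Slc17a7 and the authors annotated excitatory clusters with layer genes. Slc17a7, the vesicular glutamate transporter, averaged 704 to 1255 CPM (summed UMIs of a gene per 1000000 summed UMIs of the group) in the 7 subtypes and 11.9 in inhibitory cells, while Gad1 averaged 1051 CPM in inhibitory cells and at most 7.41 in any subtype. Cux2 of layer 2/3 was at 163 CPM in L2/3-Calb1 and 140 in L2/3-Rorb and at most 4.85 in the other excitatory subtypes. Sulf1 of layer 6 was at 96.0 CPM in L6-Npy and 68.7 in L6-Syt6 and at most 5.77 in the other subtypes. Among the 4 libraries, 82 cell barcode sequences occurred in 2 or more. The 5 markers of glia and vessels, C1qa, Cldn5, Mog, Pdgfra and Aqp4, summed to 42.4 to 61.4 CPM in the inhibitory cells of the unsorted libraries and to 3.44 to 10.3 CPM in the subtypes.

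The members fell into a set whose level changed by a large factor between excitatory subtypes and a set that varied little. Over the 7 subtypes, the ratio of the highest to the lowest mean level across the unsorted libraries was 122 for Syt17, 86.5 for Syt6 and 25.0 for Syt10. It was 2.87 for Syt4, 1.99 for Syt13, 1.93 for Syt1, 1.70 for Syt5, 1.44 for Syt7 and 1.42 for Syt16. Syt2 was close to 0 in every subtype. The subtypes were made by clustering these same cells and one of them is named for Syt6, so the levels by subtype are a description, and no test between subtypes was made.

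**Figure D1:**
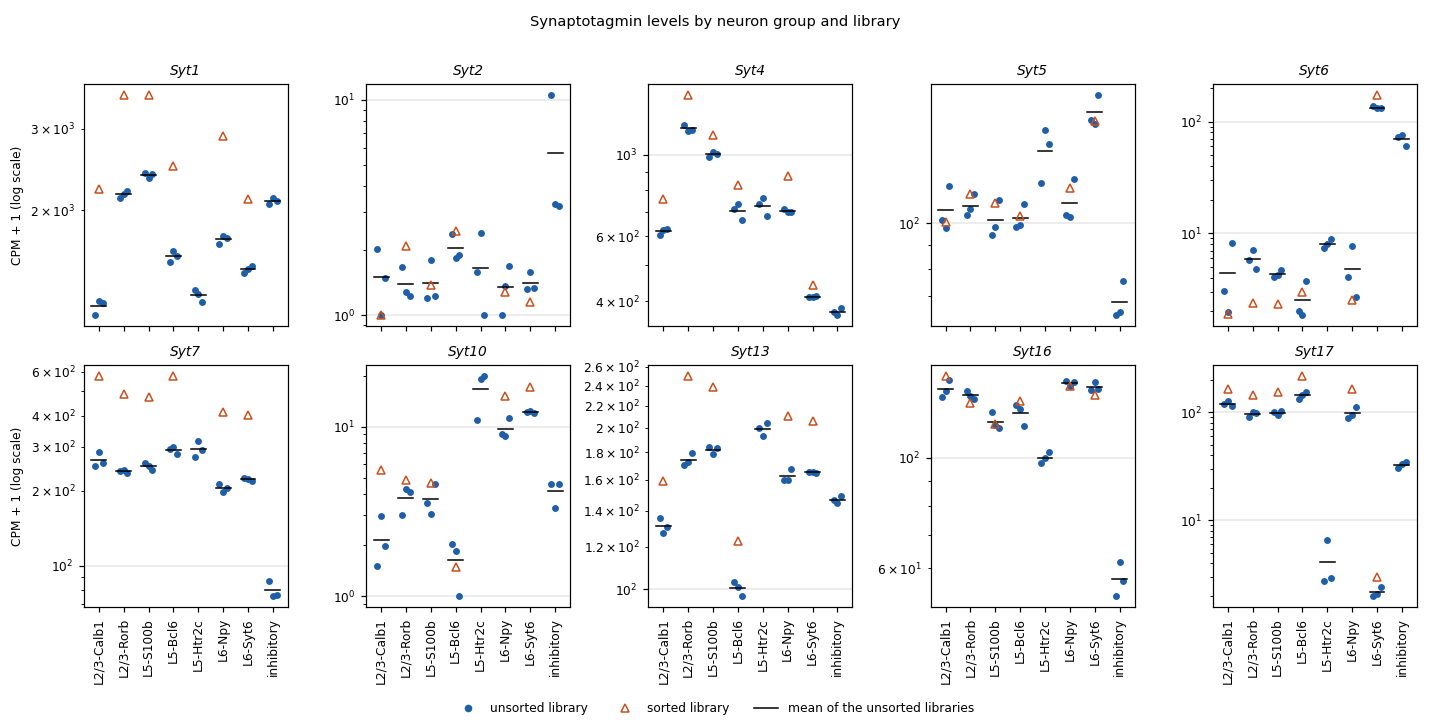
Level of each of the 10 synaptotagmins in the 7 excitatory subtypes and in inhibitory cells, as CPM + 1 of summed UMI counts on a log axis. Blue dots are the 3 unsorted libraries, open orange triangles the sorted library (no value for L5-Htr2c, which had 4 cells there), and black lines the mean of the unsorted libraries. Syt17 stood at 1.16 CPM in L6-Syt6 and at 142 CPM in L5-Bcl6, while Syt16 stayed between 99.2 and 141 CPM in all 7 subtypes.

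Syt1, the main fast calcium sensor of transmitter release in forebrain neurons, was highest in L5-S100b, at 2407, 2350 and 2397 CPM in unsorted libraries 1 to 3 and 3552 CPM in the sorted library. L2/3-Rorb followed at 2128, 2169 and 2199 CPM, and the libraries of these subtypes did not overlap. The lowest levels were 1343, 1318 and 1268 CPM in L5-Htr2c and 1186, 1270 and 1259 CPM in L2/3-Calb1, a pair whose ranges overlapped. Of the 6 pairs of neighbours in the order of subtypes, 5 did not overlap between unsorted libraries. Inhibitory cells reached 2065, 2126 and 2098 CPM, whereas microglia, which should lack a neuronal release sensor, were at 26.1 to 29.1 CPM.

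Syt7, the slow, high-affinity calcium sensor, ranged from 196 to 314 CPM over all subtypes and unsorted libraries. Its means ran from 203 CPM in L6-Npy to 292.0 in L5-Htr2c and 291 in L5-Bcl6, and only 2 of 6 neighbouring pairs did not overlap. Syt5, a calcium-binding member found on dense-core and other secretory vesicles, was at 165, 162 and 187 CPM in L6-Syt6 with 164 in the sorted library, and at 121, 157 and 147 CPM in L5-Htr2c. The other 5 subtypes lay between 93.3 and 123 CPM, below every library of L6-Syt6, and neighbours among them overlapped.

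Syt4, a vesicle protein with reduced calcium binding that is known as an activity-induced gene and as a regulator of dense-core vesicle fusion, showed a graded order, in which 4 of 6 neighbouring pairs did not overlap. L2/3-Rorb had 1206, 1162 and 1164 CPM and L5-S100b 986, 1016 and 1005. L6-Syt6 was lowest with 410, 409 and 413 CPM, and L2/3-Calb1 stood above it at 605, 624 and 626. Between these lay L5-Htr2c (678 to 761 CPM), L5-Bcl6 (664 to 732) and L6-Npy (698 to 713), which overlapped each other. The sorted library kept L2/3-Rorb highest at 1454 CPM and L6-Syt6 lowest at 443 CPM.

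Syt6 belongs to a small class of calcium-binding synaptotagmins with Syt3 and Syt10 and is best known from the sperm acrosome. The gene lies on the plus strand of chromosome 3 at 103575231 to 103645569 (GRCm38, GENCODE vM21, also for the coordinates that follow). It was at 136, 130 and 130 CPM in L6-Syt6 and 173 CPM in the sorted library. In L5-Htr2c it was at 6.40, 6.98 and 7.83 CPM, and the other 5 subtypes had 0.851 to 7.26 CPM. After each cell was thinned to 10000 UMIs, 70.6%, 70.2% and 68.7% of L6-Syt6 neurons of the unsorted libraries and 79.0% of those of the sorted library held at least 1 Syt6 UMI, against 88.8%, 88.1%, 88.6% and 92.8% without thinning. The thinned share was 5.17%, 6.45% and 7.53% in L5-Htr2c and 0% to 3.17% in the other 5 subtypes. The label L6-Syt6 thus held for the group, and the thinned share was not complete in any library.

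Free RNA in the droplets can add UMIs to cells that do not express a gene, so shares were set against microglia at a common depth of 2000 UMIs. Syt6 was found in 21.6%, 21.6% and 21.0% of L6-Syt6 neurons of the unsorted libraries at that depth and in 0.814%, 0.222% and 0.341% of microglia. Median depths before thinning were 22502 to 23820 UMIs for L6-Syt6 neurons and 4115 to 4365 UMIs for microglia.

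Syt17, also known as B/K protein, lacks a membrane-spanning segment and acts in neurite growth and receptor traffic. It lies on the minus strand of chromosome 7 at 118380717 to 118448222. It was at 132, 143 and 151 CPM in L5-Bcl6, at 118, 126 and 113 in L2/3-Calb1, at 99.9, 93.8 and 101 in L5-S100b, at 88.2, 92.5 and 112 in L6-Npy and at 89.3, 98.9 and 98.0 in L2/3-Rorb. L6-Syt6 had 0.996, 1.07 and 1.42 CPM and L5-Htr2c 1.75, 5.58 and 1.96 CPM. The split into high and low subtypes was the same in the unsorted libraries. The sorted library gave 143 to 216 CPM in the first 5 subtypes and 2.01 CPM in L6-Syt6, the same split, but had no value for L5-Htr2c. At 10000 UMIs per cell, 52.7% to 74.5% of neurons of the 5 high subtypes in the unsorted libraries held a Syt17 UMI, against 1.01%, 0.716% and 1.25% in L6-Syt6 and 0%, 3.23% and 2.15% in L5-Htr2c. At 2000 UMIs per cell the share in L6-Syt6 was 0.0662%, 0.140% and 0.507%, and that in microglia 0.203%, 0.554% and 0.455%, so the counts in L6-Syt6 were at the level of background. Over the 7 subtypes and the inhibitory cells, which share libraries and differ in depth, log2(CPM + 1) of Syt6 and of Syt17 had a Pearson r of -0.72 (8 groups).

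Syt10, a calcium sensor known for seizure-induced expression and for secretion of IGF-1 in olfactory bulb neurons, lies on the minus strand of chromosome 15 at 89782393 to 89841860. It was low throughout. L5-Htr2c had 9.90, 18.1 and 18.9 CPM, L6-Syt6 11.1, 11.4 and 11.05 CPM and L6-Npy 8.10, 7.75 and 10.3 CPM, and the first of these overlapped both others. The remaining 4 subtypes had 0 to 3.58 CPM in the unsorted libraries. At 10000 UMIs per cell, 9.48%, 17.2% and 16.1% of L5-Htr2c neurons and 10.6%, 9.74% and 10.3% of L6-Syt6 neurons held a Syt10 UMI.

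Syt13 and Syt16, both of which lack the residues that bind calcium, differed little between subtypes. Syt13 was highest in L5-Htr2c with 199, 193 and 203 CPM and lowest in L5-Bcl6 with 102, 99.997 and 96.0 CPM, and these subtypes were clear of all others. Syt16 went from 96.6, 99.1 and 101.8 CPM in L5-Htr2c to 142, 139 and 141 CPM in L6-Npy. Syt2, a fast calcium sensor on the plus strand of chromosome 1 at 134646677 to 134762593, was at or below 1.40 CPM in every subtype of the unsorted libraries. In the sorted library it reached at most 1.47 CPM, in L5-Bcl6.

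The subtype with the highest level was the same in all 4 libraries for 5 members, Syt1 in L5-S100b, Syt4 in L2/3-Rorb, Syt5 and Syt6 in L6-Syt6 and Syt17 in L5-Bcl6. Averaging the CPM of single cells in place of summing counts left 3 of these, Syt4, Syt6 and Syt17. The genes whose pattern over the 7 subtypes and inhibitory cells was most like that of Syt6 were Ranbp1 (r = 0.970), Fabp5 (0.961) and Glul (0.947). For Syt17 they were Rtn4rl1 (0.987), Gpalpp1 (0.987) and Syndig1 (0.986), and for Syt10 they were Hspa1a (0.961), Fdps (0.941) and Gm9866 (0.940). These values are over 8 groups from the same 3 libraries and describe likeness of pattern only.

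Inhibitory cells were compared with excitatory cells chosen by Slc17a7 and Gad1 plus Gad2 counts alone, so that no synaptotagmin took part in choosing the excitatory cells. The inhibitory cells were chosen by the same genes and by absence from the authors' annotation, which rests on clustering of expression. Excitatory cells numbered 2909, 2598 and 2562, and each unsorted library gave 1 sum per group. Inhibitory cells had less Syt7, Syt16, Syt5, Syt4, Syt10 and Syt17 and more Syt2 than excitatory cells. A gene was called at an adjusted p under 0.05 (edgeR's quasi-likelihood test with the library as a block and Benjamini-Hochberg adjustment over all genes tested) together with a log2 fold change of at least 0.5 in size. By this rule 7 of 10 members were called, 1 higher and 6 lower, beside 38.2% of all genes tested. The median log2 fold change of the members was -0.66 and that of all genes tested 0.00. The fold changes use TMM scaling (edgeR's trimmed mean of M-values), whereas the CPM given beside them are relative to the total of each sum.

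Syt7 was at 86.3, 74.5 and 75.4 CPM in inhibitory cells and at 233, 231 and 227 CPM in excitatory cells. No library of one class came near the other, and the log2 fold change was -1.64 ± 0.0379 (SE, n = 3 libraries, adjusted p = 5.0e-19 by edgeR). Syt16 was at 51.8, 60.8 and 55.7 CPM against 132, 133 and 131 CPM, a log2 fold change of -1.33 ± 0.0430 (adjusted p = 1.6e-16). Syt5 was at 62.8, 63.7 and 74.5 CPM against 137, 136 and 156 CPM, a log2 fold change of -1.18 ± 0.0368 (adjusted p = 7.8e-17). Both classes were again clear of each other in all 3 mice.

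Syt4 was at 372, 366 and 381 CPM in inhibitory cells against 619, 606 and 609 CPM, a log2 fold change of -0.80 ± 0.0247 (adjusted p = 6.1e-17). Syt10 averaged 3.16 CPM against 8.29 CPM, a log2 fold change of -1.49 ± 0.171 (adjusted p = 1.8e-07). Syt17 was at 29.8, 32.2 and 33.5 CPM against 41.9, 41.3 and 45.0 CPM. Its log2 fold change of -0.51 ± 0.0602 (adjusted p = 2.2e-07) stood at the fold limit, and was -0.48 without unsorted library 1 and -0.42 when library totals replaced TMM factors. With equal numbers of cells per subtype in the excitatory sums, which lowers the part of the nearly Syt17-free L6-Syt6 neurons, it was -1.46.

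Syt2 moved the other way. It was at 9.57, 2.29 and 2.22 CPM in inhibitory cells and at 0.361, 0.575 and 0.345 CPM in excitatory cells, a log2 fold change of 3.27 ± 0.391 (adjusted p = 3.0e-07). Library 1 stood above the other two inhibitory libraries, and the log2 fold change was 2.20 without it and 3.89 without library 2. Syt1 was higher in inhibitory cells of all 3 libraries by 0.23 on the log2 scale (adjusted p = 1.1e-08) and Syt13 was lower by a log2 fold change of -0.25 (adjusted p = 2.5e-07), both under the fold limit and so not called.

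Syt6 was at 72.0, 74.5 and 60.0 CPM in inhibitory cells and 78.0, 77.1 and 75.7 CPM in excitatory cells, a log2 fold change of -0.25 (adjusted p = 4.6e-04) that was not called. The direction reversed when the excitatory sums held equal numbers of cells per subtype, with a log2 fold change of 1.55 (adjusted p = 1.4e-37), because L6-Syt6 then made up a smaller part of the sum. The other synaptotagmins and the genes they work with changed in both directions. Of all genes tested 38.2% were called in either direction, the share to set beside each of these lists. Of 28 genes of the release machinery, 8 were higher and 9 lower in inhibitory cells. Cplx3, a complexin that clamps and assists fusion, differed by a log2 fold change of 3.00, Unc13c, a vesicle priming factor, by 2.89, the vesicle protein Sv2c by 2.62 and the vesicle SNARE Vamp1 by 1.64. Sv2b was lower by a log2 fold change of -6.05, the plasma membrane SNARE Stx1a by -2.68, Unc13b by -1.40 and Doc2a by -1.27. Of 10 dense-core vesicle genes, Cadps2 (1.76) and Scg2 (1.19) were higher and Pcsk2 (-1.86), Cpe (-1.002), Chgb (-0.97) and Pcsk1 (-0.52) lower. Of 7 other synaptotagmins, 5 were tested, of which Syt14 (0.71) was higher and Syt12 (-1.14) and Syt9 (-0.64) lower. The median log2 fold change was -0.27 for the release machinery, -0.17 for the dense-core list and -0.17 for the other synaptotagmins.

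Of the 5 markers of glia and vessels, 5 had a higher mean in inhibitory cells than in L6-Syt6 and L2/3-Rorb neurons and 4 than in each other subtype, and inhibitory cells were shallower. Microglia, the most frequent of the other cells, held less of every member than inhibitory cells, for example 6.80 to 9.21 CPM of Syt7. Oligodendrocyte precursors held more Syt16 than inhibitory cells, at a mean of 81.7 against 56.1 CPM, and less of the other members, with Syt6 at 32.9 against 68.8 CPM. The part of depth and of these markers in the differences was not tested.

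**Figure D2:**
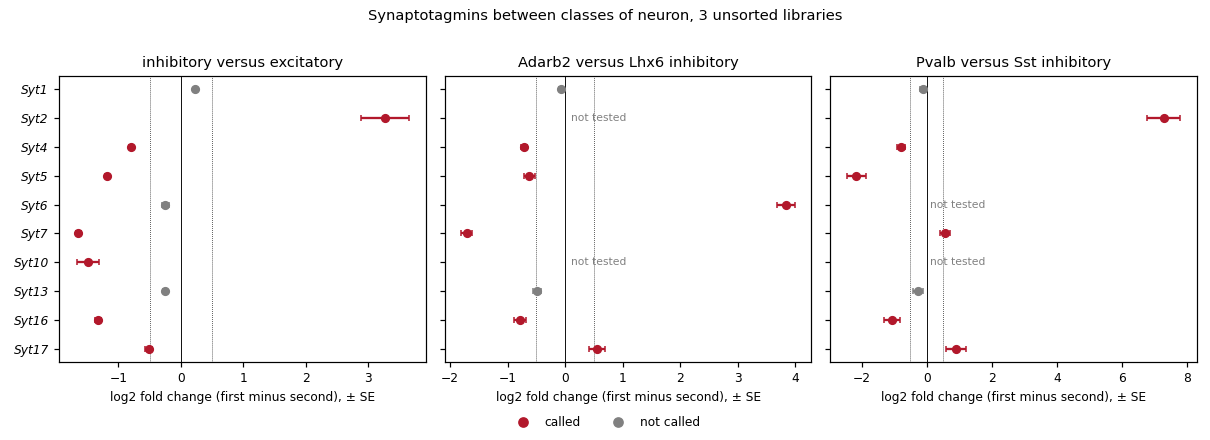
Log2 fold change of each synaptotagmin in inhibitory against excitatory cells, in Adarb2 against Lhx6 inhibitory cells and in Pvalb against Sst inhibitory cells, with bars of 1 SE from edgeR (n = 3 unsorted libraries). Red points were called, gray points were tested and not called, and dotted lines mark the fold limit of 0.5. Syt6 rises to 3.84 in Adarb2 cells and Syt2 to 7.28 in Pvalb cells, while Syt7 is at -1.71 in Adarb2 cells and at 0.57 in Pvalb cells.

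Among inhibitory cells, those with 2 or more Adarb2 and 0 Lhx6 UMIs (752 cells) were compared with those with 2 or more Lhx6 and 0 Adarb2 UMIs (343 cells). Adarb2 marks interneurons born in the caudal ganglionic eminence and Lhx6 those born in the medial one. Syt6 and Syt17 were higher and Syt7, Syt16, Syt4 and Syt5 lower in Adarb2 cells. In all 6 of 8 tested members were called, beside 21.2% of genes tested, and the members' median log2 fold change was -0.55 against 0.01 over all genes. Syt2 and Syt10 did not pass the filter on low counts. Without that filter edgeR called both. Syt2 was lower in Adarb2 cells (log2 fold change -3.92, adjusted p = 2.6e-12), on 5 against 63 UMIs. Syt10 was higher (1.40, adjusted p = 0.028), on 43 against 11 UMIs.

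Syt6 was at 134, 128 and 96.9 CPM in Adarb2 cells and at 5.72, 8.44 and 11.1 CPM in Lhx6 cells. The ranges were far apart, with a log2 fold change of 3.84 ± 0.152 (n = 3 libraries, adjusted p = 3.6e-22 by edgeR). Syt7 showed the reverse, with 39.5, 39.3 and 34.2 CPM in Adarb2 cells and 134, 118 and 120.1 CPM in Lhx6 cells, a log2 fold change of -1.71 ± 0.0931 (adjusted p = 7.1e-18). Syt4 averaged 287 CPM in Adarb2 cells and 473 CPM in Lhx6 cells, a log2 fold change of -0.72 (adjusted p = 5.9e-15). Thus the slow release sensor and the activity-induced member were both lower where Syt6 was higher, in every mouse.

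Syt16 was at 35.2, 46.3 and 44.8 CPM against 71.3, 77.7 and 67.5 CPM, a log2 fold change of -0.78 (adjusted p = 9.3e-08). Syt5 was at 46.6, 55.0 and 59.1 CPM against 78.3, 76.4 and 94.1 CPM, a log2 fold change of -0.63 (adjusted p = 1.2e-06). Syt17 was at 30.2, 39.6 and 37.2 CPM against 25.1, 20.9 and 27.0 CPM, a log2 fold change of 0.56 (adjusted p = 1.6e-03). That call was lost with DESeq2 (adjusted p = 0.272) and without unsorted library 2 (adjusted p = 0.105). Syt13, at a log2 fold change of -0.48, stayed under the fold limit. It was called under 2 of 9 alternatives, without unsorted library 2 (-0.53) and with Adarb2 or Lhx6 at 3 or more UMIs. Syt1 differed by -0.07 (adjusted p = 0.085).

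The release machinery again moved in both directions between these classes, with 5 of 28 genes higher and 6 lower in Adarb2 cells. Of all genes tested 21.2% were called in either direction, the share to set beside this list and those that follow. Cplx3 (log2 fold change 6.87), Sv2c (3.25), Cplx2 (1.81) and the Rab3 effector Rph3a (1.12) were higher, and Unc13c (-6.70), Doc2b (-2.02), Doc2a (-0.96) and Cplx1 (-0.88) lower. Of the dense-core genes 4 of 10 were called, each higher, namely Cadps2, a priming factor of dense-core vesicles (5.44), the prohormone convertases Pcsk2 (1.35) and Pcsk1 (1.24), and Scg3 (0.53). Of the other synaptotagmins, Syt9 was higher (2.68) and Syt11 lower (-0.65). Median depth was 10686 to 12294 UMIs in Adarb2 cells and 18270 to 19291 in Lhx6 cells. The summed markers of glia and vessels were at 38.4 to 66.6 CPM in Adarb2 cells and 30.4 to 95.5 CPM in Lhx6 cells.

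Within the Adarb2 cells, Syt6 was uneven. This split was made after its values were seen and was not tested. Adarb2 cells with Vip (457 cells) had 64.0, 54.6 and 47.3 CPM of Syt6, those with Lamp5 (66 cells) 0, 2.50 and 0 CPM, and those that passed the rule for none of Pvalb, Sst, Vip or Lamp5 (229 cells) 223, 262 and 189 CPM. The last group was above the first and the first above the second in every library. The untyped cells were marked by Cnr1, the cannabinoid receptor, at 5945 CPM against 2298 in the Vip and 564 in the Lamp5 cells, and by Sncg at 273 CPM against 80.6 and 0, with no overlap between the libraries of these groups. Their CPM of Syt6 exceeded that of L6-Syt6 neurons, but the share of cells with a UMI at 10000 UMIs per cell was lower, 47.4%, 55.6% and 36.1%, so no order of these groups was read. Syt17 was at 50.9, 56.8 and 53.6 CPM in the Adarb2 cells with Vip, at 12.8, 7.50 and 7.20 CPM in those with Lamp5 and at 15.4, 25.9 and 21.8 CPM in the untyped ones, so that its highest group was not that of Syt6. Syt10 was at 9.46, 6.62 and 8.82 CPM in the Adarb2 cells with Vip and at 0 in those with Lamp5 of all libraries.

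**Figure D3:**
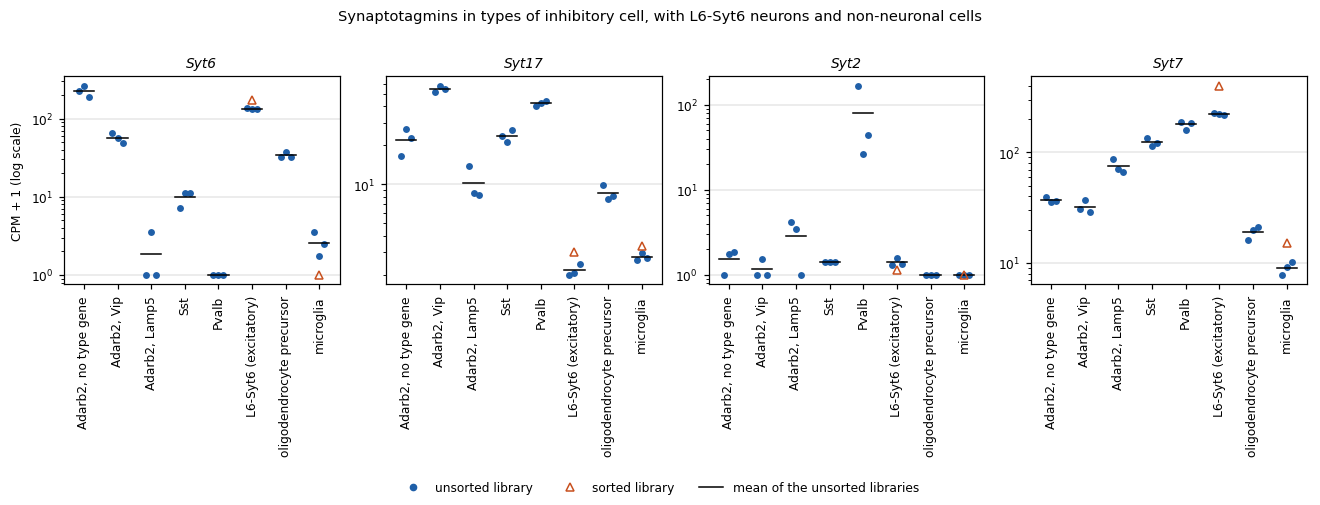
Syt6, Syt17, Syt2 and Syt7 as CPM + 1 on a log axis in types of inhibitory cells, L6-Syt6 neurons, oligodendrocyte precursors and microglia. Blue dots are unsorted libraries, orange triangles the sorted library and black lines the mean of the unsorted libraries. Syt6 is at 189 to 262 CPM in Adarb2 cells with no type gene and at 0 to 2.50 CPM in Adarb2 cells with Lamp5, and Syt2 exceeds 25 CPM only in Pvalb cells among the groups drawn.

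Pvalb and Sst cells were typed by the gene with at least 4 UMIs and at least 3 times those of the other type genes. Only 40 Pvalb cells (15, 17 and 8 in the libraries) stood against 387 Sst cells, so the Pvalb values rest on few cells. Pvalb cells had more Syt2, Syt7 and Syt17 and less Syt5, Syt16 and Syt4. In all 6 of 8 tested members were called, beside 17.7% of genes tested, and DESeq2 called 3 of the 8. The members' median log2 fold change was -0.18 and that of all genes -0.01.

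Syt2 was at 166, 25.5 and 43.2 CPM in Pvalb cells and at 0.414, 0.423 and 0.436 CPM in Sst cells. Every Pvalb library was far above every Sst library, with a log2 fold change of 7.28 ± 0.507 (n = 3 libraries, adjusted p = 2.5e-16 by edgeR). The counts were 74 UMIs in Pvalb and 3 in Sst cells, 1 in each library, and the ratio of CPM over the summed libraries was 210 with a 95% exact interval of 69.2 to 1043 that covers counting error only. Syt2 was found in 7, 3 and 2 Pvalb cells of the libraries, with 59, 8 and 7 UMIs. One cell of library 1 held 31 of the 59, and without that library the log2 fold change was 6.04.

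Syt5 was at 16.9, 22.3 and 18.5 CPM in Pvalb cells and 89.9, 82.9 and 101 CPM in Sst cells, a log2 fold change of -2.17 ± 0.291 (adjusted p = 6.6e-08). Syt4 was at 271, 322 and 259 CPM against 495, 518 and 512 CPM, a log2 fold change of -0.78 ± 0.124 (adjusted p = 2.0e-06). Both were lower in Pvalb cells of every mouse with no overlap. Syt7 was at 189, 160 and 185 CPM against 133, 114 and 121 CPM, a log2 fold change of 0.57 ± 0.151 (adjusted p = 4.1e-03), which was not called with DESeq2 (adjusted p = 0.124) or without the filter on low counts (log2 fold change 0.49).

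Syt16 was at 25.4, 54.2 and 30.9 CPM against 79.1, 85.9 and 72.4 CPM, a log2 fold change of -1.06 ± 0.254 (adjusted p = 1.3e-03) that missed the threshold with DESeq2 (adjusted p = 0.0655) and without unsorted library 1 (adjusted p = 0.0740). Syt17 was at 39.5, 41.5 and 43.2 CPM against 22.8, 20.3 and 25.3 CPM. Its libraries did not overlap, but the call (log2 fold change 0.91 ± 0.312, adjusted p = 0.030) was lost under 6 alternatives, with adjusted p from 0.054 to 0.275. Syt1 (-0.10) and Syt13 (-0.25) were not called. Syt6 and Syt10 were at 0 in Pvalb cells of all 3 libraries and did not pass the filter on low counts. For Syt6 0 of 829867 UMIs allows up to 3.62 CPM over the group, which is at least 2.42-fold lower than the 8.77 CPM of Sst cells.

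Of 25 genes of the release machinery tested, 2 were higher and 4 lower in Pvalb cells, beside 17.7% of all genes tested. The higher ones were Cplx1 (log2 fold change 1.91) and Vamp1 (1.79). Of the 4 lower ones Unc13c was at 0 in Pvalb cells, so that its fitted fold is not a size. The other 3 were Doc2a (-4.45), Cplx2 (-3.30) and Rph3a (-1.07). Of the 9 dense-core genes tested, 2 passed the adjusted p but not the fold limit, and of the 3 other synaptotagmins tested 0 did. Median depth was 17892 to 22800 UMIs in Pvalb cells and 16470 to 18917 in Sst cells. The summed markers of glia and vessels were at 22.3 to 86.4 CPM in Pvalb cells and at 23.5 to 88.0 CPM in Sst cells, and Pdgfra was at 0 in Pvalb cells.

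Neurons were compared inside a subtype by their UMIs of the summed barcode feature, as 5 or more (barcode-high) against 0 (barcode-zero). A count of 0 does not show that a neuron was unlabelled. The paper reports many zero counts of the barcodes in libraries of this kind, unlike in its separately amplified barcode libraries. The library sorted for EGFP still held 94 barcode-zero neurons of L6-Syt6, beside 441 barcode-high ones. The comparison is therefore of detected barcode counts, not of labelled against unlabelled neurons. In 4 subtypes with enough cells in each of the 4 libraries, no synaptotagmin was called. Whether the barcode entered the authors' clustering was not tested, and the 4 subtypes were taken for their numbers of barcode-high and barcode-zero cells. In L6-Syt6, 0 of 9 members tested were called beside 1.67% of genes tested, in L5-S100b 0 of 9 beside 2.7%, in L6-Npy 0 of 8 beside 0.801% and in L2/3-Rorb 0 of 7 beside 0.139%. DESeq2 also called 0 members in each. At an unadjusted p under 0.05 edgeR had 3, 5, 1 and 1 members in these subtypes.

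Within L5-S100b neurons 4 members passed the adjusted p but not the fold limit. Syt4 was at 936, 992, 958 and 1079 CPM in barcode-high neurons (unsorted libraries 1 to 3, then sorted) and at 1132, 1225, 1200.1 and 1252 CPM in barcode-zero neurons. The groups did not overlap, and the log2 fold change was -0.25 ± 0.0450 (n = 4 libraries, adjusted p = 3.3e-04 by edgeR). Syt1 moved in the other direction, at 2458, 2399.5, 2482 and 3702 CPM against 2183, 2038, 2097 and 3060 CPM, higher in each library, with a log2 fold change of 0.26 (adjusted p = 7.2e-05). Syt17 was at 93.7, 89.4, 95.5 and 137 CPM against 128, 129, 101 and 168 CPM, a log2 fold change of -0.31 (adjusted p = 0.021), and Syt13 differed by 0.24 (adjusted p = 0.024).

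In L6-Syt6 neurons Syt5 was at 181, 177, 207 and 175 CPM in barcode-high and at 161, 156, 181 and 152 CPM in barcode-zero neurons, a log2 fold change of 0.23 (adjusted p = 0.024). Syt6 itself was at 138, 135, 133 and 173 CPM against 136, 127, 128 and 178 CPM, higher in 3 of 4 libraries by 0.08 on the log2 scale (adjusted p = 0.314). Without the sorted library, Syt17 in L6-Syt6 (log2 fold change 0.99, adjusted p = 0.022) and Syt10 in L5-S100b (-1.62, adjusted p = 0.039) passed both limits. Syt17 in L6-Syt6 is at the level of microglia, and Syt10 in L5-S100b averaged 2.72 CPM in the unsorted libraries against 0.156 CPM in microglia.

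A few genes of the release and dense-core lists were called for the barcode, at most 3 of a list in a subtype. In L6-Syt6, 1 of 26 release genes tested and 0 of 10 dense-core genes were called by edgeR, beside 1.67% of all genes tested. Cplx3 was lower in barcode-high neurons (log2 fold change -1.61). In L5-S100b, 3 of 25 release genes and 2 of 10 dense-core genes were called, beside 2.7% of all genes tested. Cplx1 (0.66), Rph3a (0.63), the SNARE Snap25 (0.51), Cadps2 (0.65) and the granin-family gene Scg3 (0.54) were higher. In L6-Npy 1 of 26 release genes and 1 of 10 dense-core genes were called, beside 0.801% of all genes tested. Scg2 was higher there (0.61) and Sv2c lower (-0.54). None of these lists had a called gene in L2/3-Rorb, beside 0.139% of all genes tested. No other synaptotagmin was called for the barcode in any of the 4 subtypes. Barcode-high neurons were deeper, with medians of 24582, 25368, 25879 and 38604 UMIs against 21684, 21786, 23159 and 30097 in L6-Syt6. They also had more of the activity genes described next, of which 3 of 6 were called higher in both L6-Syt6 and L5-S100b, 6 of 6 for L6-Npy neurons and 1 of 6 for L2/3-Rorb neurons. The part of either in these values was not tested.

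**Figure D4:**
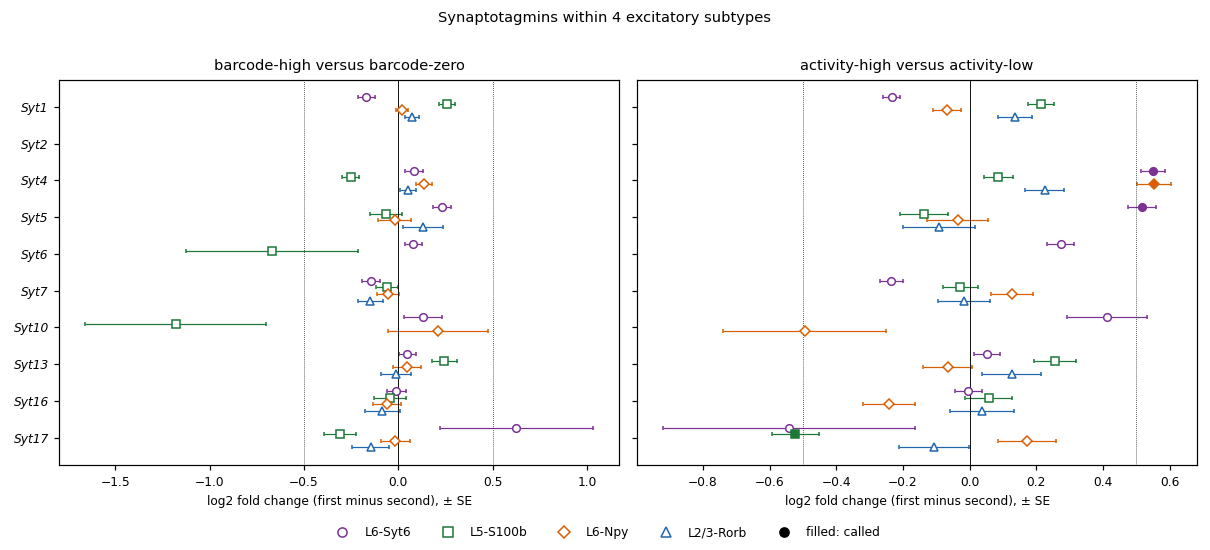
Log2 fold change of each synaptotagmin between barcode-high and barcode-zero neurons (first panel) and between activity-high and activity-low neurons (second panel) within 4 subtypes, with bars of 1 SE from edgeR (n = 4 libraries). Filled symbols were called and open symbols were tested and not called. No member was called for the barcode, while Syt4 at 0.55 in L6-Syt6 and L6-Npy, Syt5 at 0.52 in L6-Syt6 and Syt17 at -0.52 in L5-S100b were called for activity.

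Because Syt4 is known to be induced by neuronal activity, neurons of each subtype were ranked in each library by the summed UMIs of Fos, Fosb, Arc, Npas4, Egr4 and Nr4a1 after thinning to 10000 UMIs, and the highest and lowest 25% were compared. The names activity-high and activity-low stand for these counts only. Slices were warmed and digested with enzymes before capture, and the part of that handling in the counts was not tested. In L6-Syt6 the median number of these UMIs was 35, 36, 42 and 41 in the high groups and 3, 3, 3 and 4 in the low groups. Syt4 was higher in activity-high neurons of all 4 libraries in L6-Syt6, L6-Npy and L2/3-Rorb, and in the first 2 of these subtypes it passed both limits. Syt5 rose with it in L6-Syt6, and Syt17 was lower in activity-high L5-S100b neurons. In L6-Syt6, 2 of 9 members were called beside 12.9% of genes tested, in L5-S100b 1 of 7 beside 5.66%, in L6-Npy 1 of 8 beside 4.72% and in L2/3-Rorb 0 of 7 beside 2.56%. These counts rest on 1 or 2 genes each. In L2/3-Rorb DESeq2 also called 0, and 2 members had an unadjusted p under 0.05.

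In L6-Syt6 neurons Syt4 was at 475, 507, 509 and 534 CPM in activity-high and at 367, 351, 354 and 411 CPM in activity-low neurons. The groups did not overlap, and the log2 fold change was 0.55 ± 0.0351 (n = 4 libraries, adjusted p = 3.0e-12 by edgeR). Syt5 was at 199, 182, 207 and 177 CPM against 134, 138, 157 and 146 CPM, again without overlap, with a log2 fold change of 0.52 ± 0.0431 (adjusted p = 4.3e-10). Both stood just over the fold limit. With library totals in place of TMM factors they became 0.45 and 0.42 and were not called, since that scaling moved the median of all genes from -0.03 to -0.13, and relative to that median they remained raised. Neither was called when the highest and lowest tertiles were compared (0.495 and 0.48). Syt5 was not called without unsorted library 1 (0.46) or after thinning to 10000 UMIs (0.44), and kept its call under 7 of 11 alternatives. Activity-high L6-Syt6 neurons were deeper in each library, with medians of 23850, 24189, 25411.5 and 37341.5 UMIs against 21143, 21534, 22200.0 and 32354.

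Other members of L6-Syt6 neurons passed the adjusted p but not the fold limit. Syt1 was at 1285, 1314, 1331 and 1899 CPM in activity-high neurons against 1614, 1624, 1689 and 2421 CPM, lower in all libraries by a log2 fold change of -0.23 (adjusted p = 5.1e-08). Syt7 was at 204, 202, 190 and 355 CPM against 246, 245, 247 and 466 CPM, also at -0.23 (adjusted p = 7.9e-06). The calcium sensors of fast and of slow release were thus both lower in the activity-high neurons of each library. Syt6 was at 148, 134, 134 and 184 CPM against 124, 123, 118 and 168 CPM, a log2 fold change of 0.27 (adjusted p = 4.9e-06), and Syt10 differed by 0.41 (adjusted p = 7.2e-03) and was called without unsorted library 1 (0.55). Syt17, at background level in these neurons, was called lower only without the sorted library (-1.07, adjusted p = 0.031).

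In L6-Npy neurons Syt4 was at 947, 897, 793 and 1043 CPM against 580, 596, 620 and 816 CPM. It was higher in 4 of 4 libraries, and the groups overlapped only through the sorted library's low group, with a log2 fold change of 0.55 ± 0.0519 (adjusted p = 2.0e-11). The change became 0.495 with library totals, 0.49 without unsorted library 1 and 0.44 with tertiles, under the limit, and was called under 8 of 11 alternatives. Syt16 was at 130, 122, 126 and 125 CPM against 162, 147, 152 and 158 CPM, a log2 fold change of -0.24 (adjusted p = 0.039). Syt6 did not pass the filter in this subtype, at 1.36, 18.9, 5.42 and 1.62 CPM in the high and 0, 0.748, 0.700 and 1.14 CPM in the low groups.

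In L5-S100b neurons Syt17 was at 85.1, 77.0, 76.9 and 137 CPM in activity-high and at 121, 105, 129 and 201 CPM in activity-low neurons. It was lower in 4 of 4 libraries, overlapped only through the sorted library, and had a log2 fold change of -0.52 ± 0.0718 (adjusted p = 1.1e-06). Without the library block the adjusted p was 0.266, and without unsorted library 3 the log2 fold change was -0.47. Syt1 (0.21, adjusted p = 1.6e-04) and Syt13 (0.26, adjusted p = 3.5e-03) were under the fold limit. Syt4, called in 2 other subtypes, was here at 1010, 1011, 1022 and 1161 CPM against 892, 1043, 1044 and 1097 CPM, higher in 2 of 4 libraries (log2 fold change 0.09, adjusted p = 0.212). In L2/3-Rorb Syt4 was at 1284, 1185, 1245 and 1791 CPM against 1172, 1127, 1118 and 1386 CPM, higher in 4 of 4 libraries by a log2 fold change of 0.23 (adjusted p = 0.014).

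Of the 10 dense-core vesicle genes, 2 were called for activity in L6-Syt6 and 2 in L5-S100b, beside 12.9% and 5.66% of all genes, and 3 each for L6-Npy and L2/3-Rorb neurons, beside 4.72% and 2.56%. Called genes over the whole table were also more often higher than lower in each of the 4 subtypes with TMM scaling, in L6-Syt6 974 higher and 598 lower, which became 705 and 948 with library totals. Chgb and Chga, granins of dense-core vesicles, were higher in L6-Syt6 (log2 fold change 0.71 and 0.62), Chgb (0.69) and Pcsk1 (0.60) in L5-S100b, Scg2 (2.12) and Pcsk1 (1.64) in L6-Npy, and Scg2 (1.10), Cadps2 (0.90) and Pcsk1 (0.85) in L2/3-Rorb. Cadps2 was lower in L6-Npy (-0.95). The list's median log2 fold change was 0.30 in L6-Syt6 and 0.04 to 0.10 in the other 3 subtypes. Of the release machinery, 3 of 26 genes tested were called in L6-Syt6 and 1 of 24 in L5-S100b. In L6-Npy it was 2 of 26 and in L2/3-Rorb 1 of 22, beside the same shares of all genes. Rph3a was higher in L5-S100b (0.61), and Cplx3 (-1.63), Vamp1 (-0.62) and Cplx1 (-0.54) in L6-Syt6, Vamp1 (-0.88) and Unc13c (-0.56) in L6-Npy and Unc13b (-0.51) in L2/3-Rorb were lower. No other synaptotagmin was called in any of the 4 subtypes, among 4 or 5 tested.

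Neurons sorted for EGFP formed 1 library, so its values stand beside those of the 3 unsorted libraries without a test. In each of 6 subtypes the sorted library had more Syt1, Syt4, Syt7 and Syt13 than any unsorted library. Of the 6 members with a mean of at least 10 CPM in all 6 subtypes of the unsorted libraries, these 4 were above in all 6 subtypes, beside 30.1% of the 7875 genes that met the same minimum, and 0 were below in all 6, beside 17.3%. The ratio of the sorted value to the mean of the unsorted ones was 1.81 to 2.18 for Syt7 over the subtypes, 1.415 to 1.80 for Syt1, 1.21 to 1.44 for Syt13 and 1.08 to 1.25 for Syt4. Syt5 (0.946 to 1.09) and Syt16 (0.963 to 1.06) were near 1. Syt17 was above in all 6 subtypes, with ratios of 1.36 to 1.73, but is under the minimum in L6-Syt6. Syt6 was above the unsorted libraries in L6-Syt6, with a ratio of 1.31, within them in L5-Bcl6 and below them in the other 4 subtypes, with ratios of 0.264 to 0.406 at levels of 0.907 to 1.52 CPM in the sorted library.

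For Syt7 the sorted library had 401 CPM in L6-Syt6 against 219 to 224 CPM in the unsorted ones, and 576 CPM in L2/3-Calb1 against 249 to 285 CPM. The sorted neurons were deeper, but at an equal 10000 UMIs per cell the values were 399 against 221 to 225 CPM for Syt7 and 2181 against 1496 to 1548 CPM for Syt1 in L6-Syt6. Sorting, the pooling of 3 mice and the separate run of this library cannot be told apart. Within the L6-Syt6 neurons of the sorted library, Syt7 was at 366 CPM in barcode-high and 459 CPM in barcode-zero neurons, both above the 203 to 230.0 CPM of the unsorted groups, and over the 4 libraries its log2 fold change with the barcode was -0.14 (adjusted p = 0.103).

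**Figure D5:**
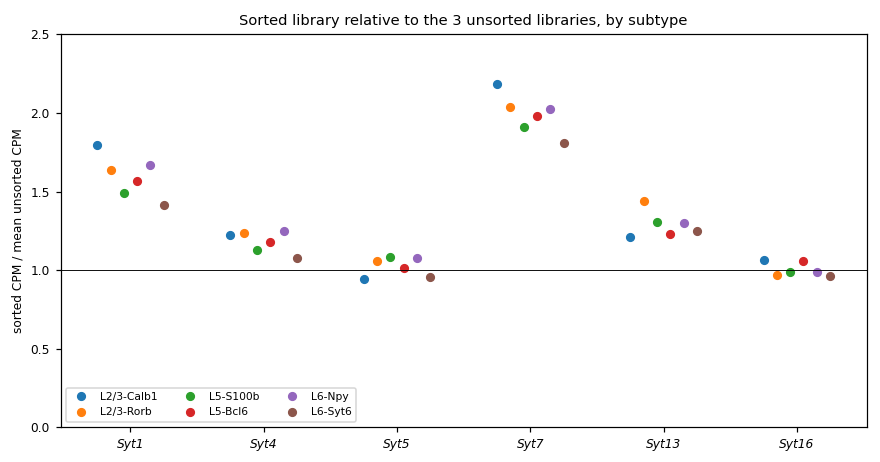
Ratio of the sorted library's CPM to the mean CPM of the 3 unsorted libraries for Syt1, Syt4, Syt5, Syt7, Syt13 and Syt16 in 6 subtypes, on an axis from 0, with a line at 1. There is 1 sorted library, so no error is drawn. Syt7 lies at 1.81 to 2.18 in every subtype, and Syt5 and Syt16 lie near 1.

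The members also differed in how well they could be assigned. Gene models on the same strand overlap those of Syt1 (Gm5136, Gm47477), Syt6 (Gm43066) and Syt7 (AC124169.1), and reads in the shared stretches could be counted for either gene or left out.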

How the data were processed

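The authors prepared 10x Chromium 3' v3 libraries, aligned them with Cell Ranger (3.0.2 per the file headers) to mm10 with the projection barcodes added as genes, and deposited UMI counts per gene and cell, unnormalized. The deposited metadata give subtype, total UMIs and the percent of mitochondrial counts for the authors' excitatory neurons, clustered by the authors with Seurat 3.1.4 and Scanpy (the version number in the submitters' processing notes is left out here). Subtypes were taken from that annotation. The barcode feature in the matrices is 1 gene that sums the virus barcodes.

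Cells needed 500 to 8000 genes, 1000 to 60000 UMIs and at most 20% mitochondrial counts. No doublet caller was run, and 187 cells meeting 2 or more non-neuronal definitions were left out. Glia and vessel cells needed summed marker UMIs of 4 or more (10 for microglia) and no entry in the metadata. Raw counts of the cells of a group were added up within each library. Levels are CPM of these sums, for groups of at least 5 cells. Comparisons used edgeR 4.0.16 (quasi-likelihood F test, filterByExpr, TMM, Benjamini-Hochberg over all genes tested) with the library as a block, since both groups of a pair came from the same animal or, in the sorted library, the same pooled animals. Within a subtype a library needed at least 10 cells in both groups. Between cell classes no such minimum was set, and unsorted library 3 entered with 8 Pvalb cells. R 4.3.3, limma 3.58.1, Python 3.11.15, numpy 2.4.6, pandas 2.3.3 and scipy 1.17.1 were used. The fitting step was tested on simulated data. Alternatives were DESeq2 1.42.0, DESeq2 size factors, no filter, no block, each library left out, other definitions of the cell groups and thinned or depth-matched cells. Scaling by library totals was added after the data were seen.

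The members and lists were chosen with earlier results of these data known. A member not named in a comparison was not called there by the main fit or did not pass the filter. Of each pathway list the counts called are given, with at most the 4 called genes with the largest fold change per direction. Likeness of pattern was computed for members of at least 5 CPM in their highest group and at least 4 times the lowest, among genes reaching 20 CPM. Groups at 0 were given a floor of 3 counts over the group. Intervals and floors cover counting error only. Gene positions come from GENCODE vM21 on GRCm38, the build of the files. Differences between subtypes and the sorted library, which is 1 sample, were not tested.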

Additional observations from a re-analysis of the deposited data

Results flagged for a closer look

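For 8 pairs of subtypes a member moved one way in all 4 libraries of one subtype and the opposite way in all 4 libraries of the other. The differences between subtypes were not tested, and all subtypes come from the same libraries. Between barcode-high and barcode-zero neurons, the log2 fold change of Syt1 was 0.26 in L5-S100b and -0.17 in L6-Syt6, a difference of 0.43, and it was 0.07 in L2/3-Rorb, a difference of 0.24 from L6-Syt6. The fold change of Syt4 was 0.14 in L6-Npy and -0.25 in L5-S100b, a difference of 0.39. Between activity-high and activity-low neurons, Syt1 was at 0.21 in L5-S100b and 0.14 in L2/3-Rorb and at -0.23 in L6-Syt6, differences of 0.45 and 0.37. Syt5 was at 0.52 in L6-Syt6 and -0.14 in L5-S100b, a difference of 0.65. Syt7 was at 0.13 in L6-Npy, at -0.23 in L6-Syt6 and at -0.03 in L5-S100b, differences of 0.36 and 0.16. Groups of 3 unsorted libraries and 1 sorted library were too small for a check of single libraries.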

How the results depend on the processing

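Of the values of 29 results on single members under alternatives, 257 kept direction and side of the limits, 25 lost and 6 gained the call and 1 reversed, the log2 fold change of Syt6 in inhibitory against excitatory cells, at 1.55 with equal numbers of cells per subtype. Averaging single-cell CPM left 3 members, not 5, with the same highest subtype in all libraries. DESeq2 called 3 members, not 6, between Pvalb and Sst cells. With library totals 0 members were called for activity in L6-Syt6 and 0 in L6-Npy (2 and 1 with TMM), and with tertiles 0 and 0. Thinning left 1 in L6-Syt6, and no filter gave 2 in L6-Npy.

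Leaving out single libraries gave 6 to 7 members called in inhibitory against excitatory cells, 5 in Pvalb against Sst cells and 6 in Adarb2 against Lhx6 cells. It gave 0 to 1 for the barcode in L6-Syt6 and in L5-S100b (1 without the sorted library), 2 to 3 for activity in L6-Syt6, 0 to 1 in L5-S100b (0 without unsorted library 3) and 0 to 1 in L6-Npy (0 without unsorted library 1). Without the library block, which pairs groups of the same animal, 0 members were called for activity in L5-S100b, and no other member's call changed. Over all genes the barcode counts fell without the block from 218 to 75 in L6-Syt6, 310 to 56 in L5-S100b, 83 to 0 in L6-Npy and 14 to 0 in L2/3-Rorb, and the activity counts from 598 to 250 in L5-S100b, 461 to 215 in L6-Npy and 231 to 87 in L2/3-Rorb.

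DESeq2 called 865 genes, not 1731, for Pvalb against Sst, 1453, not 2400, for Adarb2 against Lhx6, for the barcode 143 in L5-S100b, 11 for L6-Npy neurons and 0 for L2/3-Rorb neurons, and for activity 278, 232 and 89 in that order. Library totals changed the split of higher and lower genes from 105 and 113 to 82 and 163 for the barcode in L6-Syt6, and for activity from 974 and 598 to 705 and 948 in L6-Syt6, 325 and 136 to 276 and 212 in L6-Npy and 178 and 53 to 152 and 77 in L2/3-Rorb. Over all alternatives, single libraries left out included, the barcode counts lay between 27 and 309 in L6-Syt6, 56 and 355 in L5-S100b, 0 and 115 in L6-Npy and 0 and 33 in L2/3-Rorb, and thinning gave 139 genes for activity in L2/3-Rorb. The cause of these changes was not tested. Depth limits Syt2, Syt6, Syt10 and Syt17 where they are near 0. Matching the total UMIs of barcode groups left too few barcode-zero cells of the sorted library in L5-S100b and L2/3-Rorb, so those fits used the unsorted libraries.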

Other observations

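Some members were also found in cells other than neurons, which were not compared between conditions. Syt6 was at 30.9, 36.2 and 31.5 CPM in oligodendrocyte precursors of the unsorted libraries, and 5.67%, 6.11% and 6.42% of these cells held a Syt6 UMI at 2000 UMIs per cell, against 0.814%, 0.222% and 0.341% of microglia. Syt16 was at 80.9, 84.3 and 79.8 CPM in the precursors and at 2.04 to 3.20 CPM in microglia. Oligodendrocyte precursors give rise to myelinating cells and receive synapses from neurons. They held Pdgfra at 1929 CPM and Gad1 at 50.5 CPM, more Gad1 than the other non-neuronal cells, and the part of neuronal RNA in these counts was not tested. Syt1 of inhibitory cells exceeded that of excitatory cells under all 11 alternatives without being called under any.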
